A study of Ovis aries with 15 samples.

Results

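Ribosomal proteins are the protein part of the ribosome, the particle that reads messenger RNA and joins amino acids into protein. The array carried 32 probes for 19 of their genes, of 15008 probes without controls under 14351 names. The probes were chosen by name: a gene name beginning with RPL or RPS and a number, or a description holding the words ribosomal protein, with the S6 kinases and the mitochondrial ribosome left out. Of the 32 probes, 13 stood for 8 genes of the large subunit and 19 probes for 11 genes of the small subunit, and 8 genes had several probes. All 32 were tested, and none was saturated on any array. With arrays scaled to their 75th percentile, no bright probe of the family (28 of the 32) was called in any comparison of hypoxia or ketamine. A pair of dim probes named RPS25 gave the only calls. Of all tested probes, 2.71% to 20.3% were called, by comparison. In some other settings, among them quantile scaling and the authors' deposited values, some bright probes were called.

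Each subunit is built in the nucleolus from ribosomal RNA and many different proteins, which cells make in matched amounts. Their messenger RNAs are abundant and carry a tract at the start that lets growth signals through mTOR raise or lower translation together. In many cell types low oxygen lowers protein synthesis, largely by acting on translation rather than on the amount of these messenger RNAs. Some members also act outside the ribosome, and RPL11, when free, binds MDM2 and so stabilises p53.

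Kidney cortex came from 15 sheep fetuses (gestational day 125, with catheters in place), and each fetus gave 1 array. The fetus had 30 min of hypoxia, brought on through the mother's ventilation, or 30 min of normoxia. It was given ketamine (3 mg/kg), an anaesthetic that acts as an NMDA receptor antagonist, or saline as vehicle, and the labels time the ketamine at 10 min before hypoxia. There were 3 fetuses in normoxia with vehicle and 4 in each other group: hypoxia with vehicle, normoxia with ketamine and hypoxia with ketamine. All cortices were taken 24 h after the exposure began. All fetuses, controls included, had been operated on to place catheters, so no group is an undisturbed fetus.

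Values are log2 processed signal relative to the 75th percentile of the array, so 0 is the signal that 75% of probes stay below. A difference of these values between groups is a log2 change. Probes differ in how well they bind, so levels are compared between arrays for 1 probe and not between probes. A probe was called where limma gave it an unadjusted p no higher than 0.05, which is the study's own threshold, and p-values adjusted by Benjamini-Hochberg over all 12925 tested probes are given beside it.

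The share of probes well above background was 75.7% on hypoxia ketamine array 4 and 81.0% to 85.2% on the other arrays. Hypoxia vehicle array 4 and hypoxia ketamine array 2 had the lowest median correlation with the rest (Spearman 0.955 and 0.970). Placental lactogen was well above background on 3 cortex arrays, normoxia ketamine arrays 1 and 2 and hypoxia ketamine array 2. All 7 probes of the kidney epithelium list were well above background on all 15 arrays. The mean level of 8 monocyte and macrophage probes, 7 of which were well above background on all arrays, lay between -3.42 and -2.95 on the normoxic arrays and between -2.84 and -0.91 on the hypoxic ones. In whole cortex, fewer cells of a type and less RNA per cell cannot be told apart.

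The RPL10 probes show how finely the array repeats itself. RPL10, a protein of the large subunit that joins it late, in the cytoplasm, had 3 probes of 60 bases that overlap along the same RefSeq mRNA. In their sequences, as the scanner files give them, capitals mark the 42 bases that all 3 share.
A_70_P029952: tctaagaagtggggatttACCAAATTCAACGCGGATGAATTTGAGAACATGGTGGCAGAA
A_70_P029951: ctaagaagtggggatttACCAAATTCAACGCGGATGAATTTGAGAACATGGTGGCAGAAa
A_70_P072276: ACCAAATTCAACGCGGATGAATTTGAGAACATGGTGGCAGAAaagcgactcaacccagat

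Probe A_70_P029952 read 4.77, 4.77 and 4.65 in normoxia with vehicle and 4.58, 4.57, 4.47 and 4.52 in normoxia with ketamine. It read 4.66, 4.61, 4.81 and 4.54 in hypoxia with vehicle and 4.65, 4.59, 4.67 and 4.90 in hypoxia with ketamine. On this probe the normoxic ketamine arrays lay below all normoxic vehicle arrays and below all hypoxic ketamine arrays. Hypoxia vehicle array 4 (4.54) lay among them. On A_70_P029951 they lay below all normoxic vehicle arrays but overlapped hypoxia with ketamine, and on A_70_P072276 they overlapped both groups. The share of all tested probes that separate in this way was not counted. The fitted log2 change with ketamine in normoxia was -0.20 ± 0.10 (SE, limma, n = 7, unadjusted p = 0.0787, adjusted p = 0.9998), and the other RPL10 probes gave -0.16 and -0.19. None of the 3 passed the threshold. The hypoxia by ketamine interaction of A_70_P029952 was 0.25 ± 0.14 (limma, unadjusted p = 0.104), and it did not pass either. On quantile-scaled values this probe was called in both of these tests (-0.27, unadjusted p = 0.0331, and 0.37, unadjusted p = 0.0326). By the authors' deposited values all 3 RPL10 probes were called for ketamine in normoxia (-0.25 to -0.30), where 2.39% of all probes were called.

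The arrays told shared-target probes apart by little. In 7 pairs of probes for the same gene that share 42 to 59 bases, the log2 difference between both members had an SD over the arrays of 0.035 to 0.11, with a median of 0.073. Their fitted changes after hypoxia differed by at most 0.054 in vehicle fetuses and 0.061 in ketamine fetuses. The 3 RPL4 probes, for a large-subunit protein with an extension that lines the tunnel through which new protein leaves, share no run of 25 bases. Their log2 differences had SDs of 0.056 to 0.096, in the same range. Probes of 1 gene share the RNA of the array, so they are not replicates of a condition.

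One RPL4 probe also has a mirror image on the array. Probe A_70_P001417 and the unnamed probe A_70_P015011 hold the same 59 bases on opposite strands, in capitals here.
A_70_P001417: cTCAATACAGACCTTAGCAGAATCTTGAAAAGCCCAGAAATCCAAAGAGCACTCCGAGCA
A_70_P015011: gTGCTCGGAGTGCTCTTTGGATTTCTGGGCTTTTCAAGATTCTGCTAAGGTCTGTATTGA
The mirror probe was well above background on all 15 arrays, with values from -2.99 to -2.40. Its log2 change after hypoxia was 0.24 ± 0.15 in vehicle fetuses and -0.072 ± 0.14 in ketamine fetuses (SE), and it was called in no comparison. The RPL35A probe shares 29 bases, on the same strand, with a probe named only by an expressed sequence tag (EST, a short read of a cDNA), which was not called either.

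Of the 32 probes, 28 were above the 75th percentile on every array and are called bright here. They covered 18 of the 19 genes, all except RPS15, and 87.5% of the ribosomal protein probes against 29.1% of all tested probes had a mean level above that percentile. The 4 dim probes included 2 of the 4 named RPS25 and the RPS15 probe. The bright probes varied little among fetuses of a group. Their residual SD, the spread within groups that the fit leaves, was 0.068 to 0.16 with a median of 0.12. The median was 0.20 over the 2004 other tested probes in the same range of level, of which 13.1% had a lower SD than the bright median. It was 0.27 over all tested probes. The 2004 probes were chosen by the range of mean level alone. They were not matched on how levels spread within it and did not have to exceed the 75th percentile on every array. The plot of residual SD against level shows the bright probes at the right-hand lower edge of the array's probes and the dim ones among probes of like level.

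**Figure D1:**
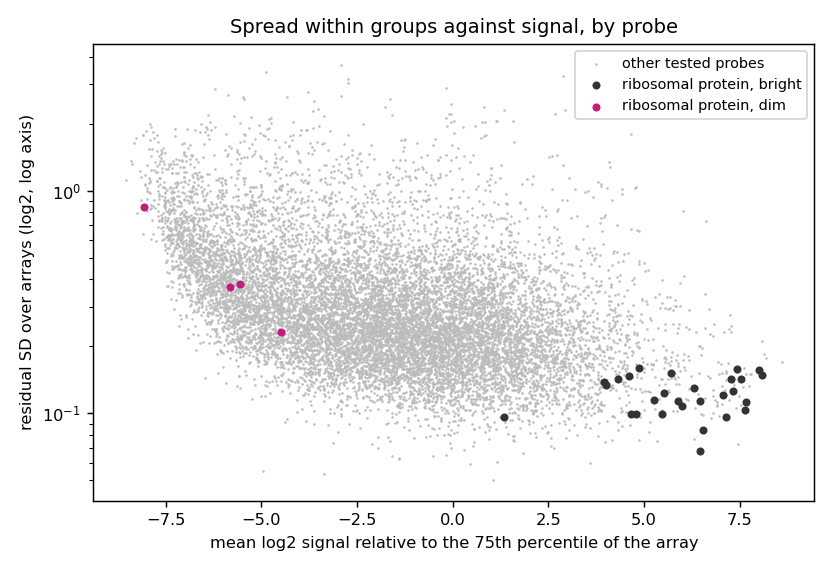
Each point is 1 of the 12925 tested probes, by its mean log2 signal relative to the 75th percentile of the array (x axis) and its residual SD over the arrays (y axis, log scale). The 28 bright ribosomal protein probes (black) have residual SDs of 0.068 to 0.16, and the 4 dim ones (magenta) 0.23 to 0.84.

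On some arrays most bright probes lay on the same side of their own means, and on others they were mixed. Above their own mean were 26 of 28 on hypoxia vehicle array 3, 1 of 28 on hypoxia ketamine array 2 and 16 of 28 on hypoxia ketamine array 3. These shifts did not follow the groups, and how far the probes moved together was not measured. With 1 array per fetus, a shift of the fetus and one of its array cannot be told apart. For each array the median deviation of the bright probes from their own means was taken as a score. It was 0.076, -0.051 and 0.028 in normoxia with vehicle and -0.0092, 0.10, -0.037 and -0.057 in normoxia with ketamine. It was -0.034, -0.094, 0.11 and -0.11 in hypoxia with vehicle and 0.024, -0.086, 0.020 and 0.17 in hypoxia with ketamine. Each group held arrays on both sides of 0, and all 4 groups overlapped. The group means were 0.018 ± 0.064 (SD, n = 3), 0.00030 ± 0.072 (n = 4), -0.031 ± 0.098 (n = 4) and 0.032 ± 0.10 (n = 4), which lie within the pooled SD of 0.088 of each other.

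Hypoxia ketamine array 4 stood highest. There 26 of the 27 bright probes with a value were above their own mean, and 13 had their highest value of all arrays. This is the array with the smallest share of probes well above background, and the part of that in its score was not tested. Normoxia ketamine array 2, with 7 highest values, and hypoxia vehicle array 3, with 3, came next. The lowest values lay on hypoxia vehicle array 2 for 8 probes and on hypoxia vehicle array 4 and hypoxia ketamine array 2 for 4 each. Over all tested probes the median deviation of an array lay between -0.078 and 0.044, a narrower range than that of the scores. It was -0.0082 on hypoxia ketamine array 4, 0.044 on normoxia ketamine array 2 and -0.0034 on hypoxia vehicle array 3. On hypoxia vehicle arrays 2 and 4 it was 0.0036 and -0.078, and on hypoxia ketamine array 2 it was -0.012. The part of the scaling in the scores was not tested.

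**Figure D2:**
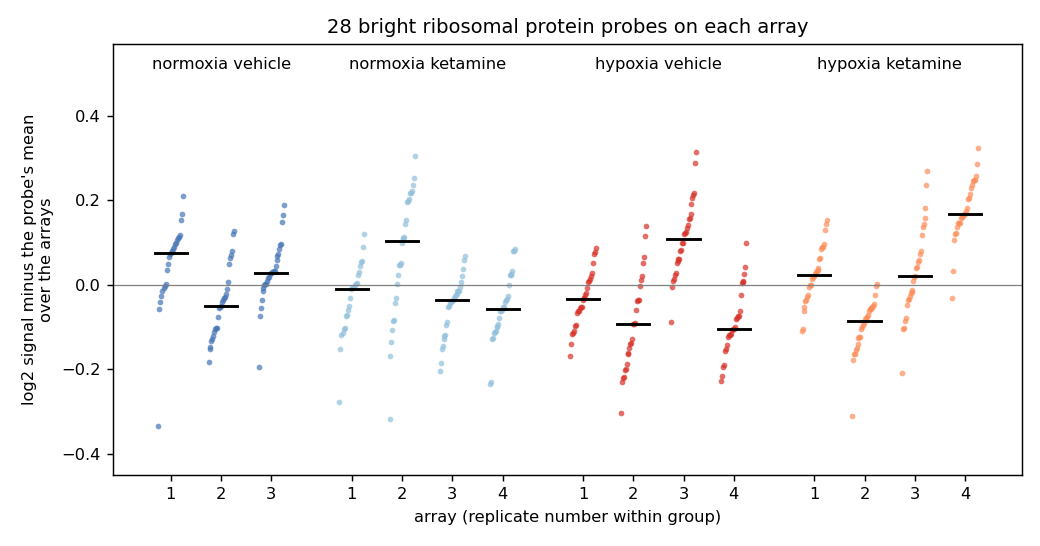
Each point is 1 of the 28 bright ribosomal protein probes on 1 array, as its log2 signal minus that probe's mean over the arrays; the black bar is the array's median, and arrays are ordered by group and replicate number. The medians run from -0.11 on hypoxia vehicle array 4 to 0.17 on hypoxia ketamine array 4, and arrays of every group lie on both sides of 0.

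The first comparison asks what 30 min of hypoxia did to these messenger RNAs a day later in fetuses given vehicle. None of the 32 probes was called in limma, against 16.1% of all tested probes and 13.3% of those above the 75th percentile. None passed an adjusted p of 0.05, which 0.0155% of all tested probes passed, and the lowest unadjusted p of a bright probe was 0.146. The median log2 change was -0.039 over the 32 probes and -0.053 over all tested probes, with 11 of the 32 higher after hypoxia against 43.0% of all tested probes. The large-subunit probes had a median of -0.048 and the small-subunit probes of -0.019. Among bright probes the change ran from -0.16 for RPL13A to 0.21 for RPL6, and their median size without sign was 0.052 against 0.22 over all tested probes.

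How large a change these data leave possible is given by the intervals. The 95% intervals of the 28 bright probes spanned -0.45 to 0.49 on the log2 scale between them, or 0.731-fold to 1.41-fold. In this comparison the direction of the family's median held under each scaling, but its size did not: it was -0.17 on quantile-scaled values and -0.15 in the authors' deposited table, against medians of -0.073 and -0.063 over all probes on those scales. The direction did not hold in each slide, with a median of -0.10 within slide 1 and 0.010 within slide 2. On quantile-scaled values 2 probes were called lower, RPL13A (-0.34, limma, unadjusted p = 0.0355) and RPL4 A_70_P001416 (-0.30, unadjusted p = 0.0197). In the deposited values 3 were called lower, 1 probe each of RPL4, RPL14 and RPL10 (-0.25 to -0.29). Of all tested probes, 17.3% were called in either direction on quantile-scaled values and 18.1% in the deposited values.

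RPL6, a large-subunit protein, was the bright probe that stood highest after hypoxia with vehicle. It read 7.67, 7.95 and 7.97 in normoxia with vehicle and 8.06, 8.06, 8.06 and 8.11 in hypoxia with vehicle. All 4 hypoxic arrays were above all 3 normoxic ones. RPL6 was singled out after its values were seen, and the share of all tested probes that separate in this way was not counted. The log2 change was 0.21 ± 0.13 (SE, limma, n = 7, unadjusted p = 0.146, adjusted p = 0.458), which did not pass. In the ketamine arm RPL6 read 8.06, 8.31, 7.85 and 8.03 in normoxia and 7.97, 7.95, 7.80 and 8.25 in hypoxia, and those groups overlapped.

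RPL13A, which can leave the ribosome and silence the translation of inflammatory messages, lay at the other end. It read 5.03, 4.73 and 5.05 in normoxia with vehicle, 4.92, 5.08, 4.83 and 4.83 in normoxia with ketamine, 4.69, 4.80, 4.94 and 4.67 in hypoxia with vehicle and 4.96, 4.55, 5.02 and 4.83 in hypoxia with ketamine. The groups overlapped in each comparison. Its log2 change was -0.16 ± 0.14 with vehicle and -0.074 ± 0.13 with ketamine (SE).

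The same question in ketamine fetuses gave 1 call among 32 probes in limma, against 8.67% of all tested probes, and no probe of the array passed the adjusted threshold (0%). That call was a dim RPS25 probe, described with its partners further on, and no bright probe passed. The bright probes changed by -0.078 to 0.19 on the log2 scale, with 95% intervals that together ran from -0.34 to 0.45 (0.788-fold to 1.37-fold). The median over the 32 probes was 0.058 against -0.024 over all tested probes, and 25 of the 32 were higher after hypoxia against 45.2% of all tested probes. Without hypoxia ketamine array 4 the median was 0.025, without the arrays with placental lactogen it was 0.13, and with normexp background correction it turned to -0.0016, while the median of all probes moved from -0.024 to 0.087.

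RPS26, which contacts the messenger RNA just upstream of the start codon, had the largest change among bright probes in that arm. Probe A_70_P050961 read 5.97, 5.77, 5.76 and 5.82 in normoxia with ketamine and 5.90, 5.87, 6.11 and 6.13 in hypoxia with ketamine. The hypoxic arrays tended higher, and the ranges overlapped through normoxia ketamine array 1. The log2 change was 0.17 ± 0.10 (SE, limma, n = 8, unadjusted p = 0.109), and the second probe, which shares 59 bases with it, gave that largest change, 0.19 ± 0.12. Neither passed. With ketamine in hypoxia neither was called, but in limma on the authors' deposited table both were called higher (0.26 and 0.28, unadjusted p = 0.0445 and 0.0317), and both were called in the interaction (0.37 and 0.40). Without the arrays with placental lactogen A_70_P050962 was also called higher with ketamine in hypoxia (0.26, unadjusted p = 0.0480).

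**Figure D3:**
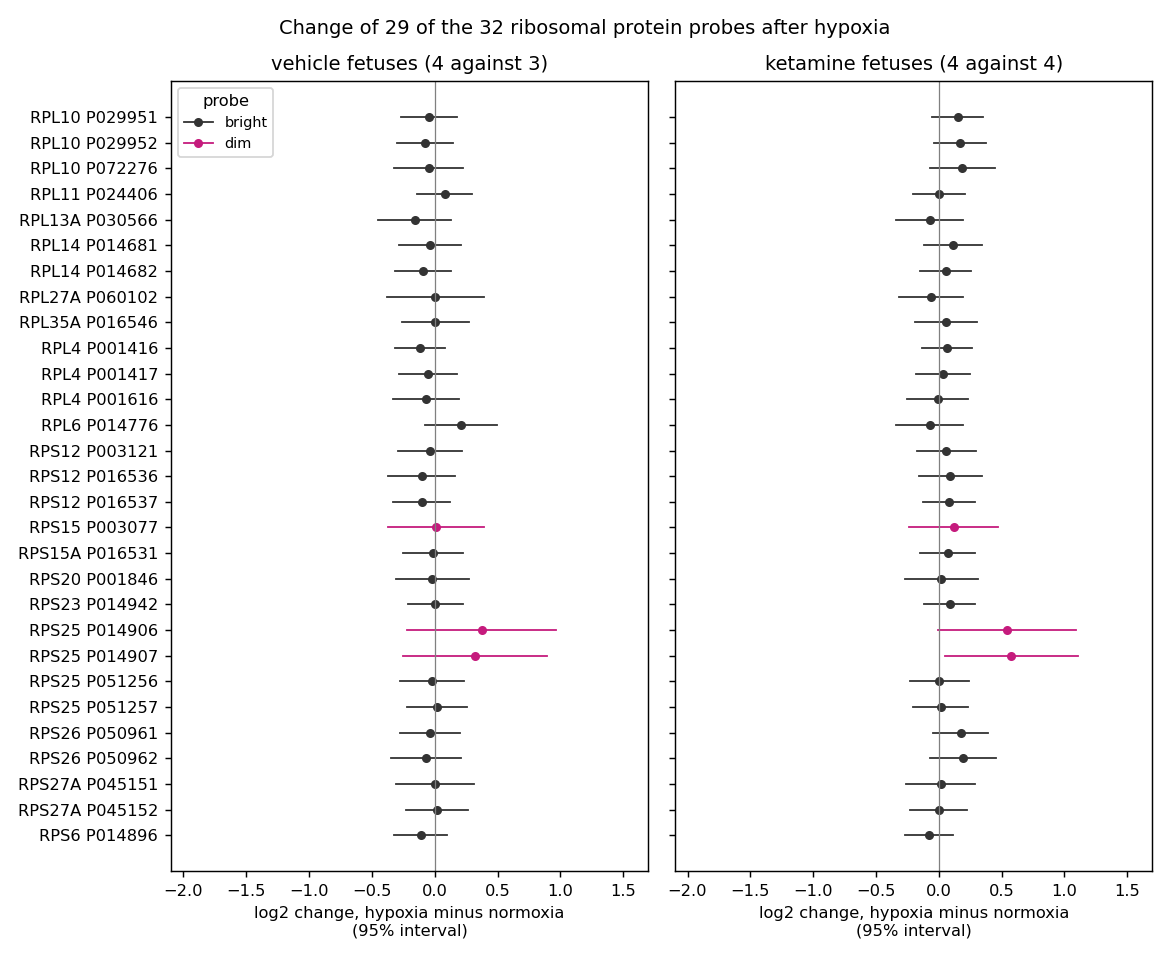
Points are the fitted log2 changes after hypoxia of 29 of the 32 ribosomal protein probes, named by gene and probe (without the prefix A_70_), and lines are 95% intervals from limma; the left panel has vehicle fetuses and the right panel ketamine fetuses. The intervals of the 26 bright probes plotted (black) all cross 0 in both panels, and of the 3 dim probes plotted (magenta) only RPS25 P014907 in ketamine fetuses lies wholly above 0.

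Ketamine itself gave no call among the 32 probes in limma. In hypoxic fetuses 6.07% of all tested probes were called, in normoxic fetuses 2.71%, and for the hypoxia by ketamine interaction 3.15%, and after adjustment none (0%). The bright probes changed by -0.077 to 0.19 with ketamine in hypoxia and by -0.20 to 0.20 in normoxia. The medians over the 32 probes were 0.061 and -0.024, against 0.020 and -0.015 over all tested probes, and 25 and 11 of the 32 were higher, against 53.7% and 46.7% of all tested probes. The interaction had a median of 0.088 over the 32 probes and 0.031 over all tested probes, and it shares its arrays with the comparisons it is made from. Without hypoxia ketamine array 4 the median with ketamine in hypoxia was 0.0048, and without the arrays with placental lactogen it was 0.11. Its direction differed between the slides, with 0.14 within slide 1 and -0.013 within slide 2. With ketamine in normoxia it was 0.0096 within slide 1 and -0.10 within slide 2.

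Taking the mean of both arms gives the hypoxia comparison all 15 arrays. Of the 32 probes 2 were called in limma, both dim RPS25 probes, against 20.3% of all tested probes and 17.6% of those above the 75th percentile. None passed the adjusted threshold, against 1.6% of all tested probes. The bright probes changed by -0.12 to 0.070 on the log2 scale, and their 95% intervals together ran from -0.32 to 0.28, or 0.803-fold to 1.22-fold. The median size of their change without sign was 0.034, against 0.16 over all tested probes. The median of the 32 probes was 0.013, but it was slightly negative with quantile scaling (-0.040), with normexp (-0.0030) and in the deposited table (-0.039), so the family has no direction here.

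The other proteins of the large subunit, and RPL4, had small log2 changes after hypoxia. RPL4 changed over both arms by -0.040 to -0.0098 on its 3 probes, RPL14 by 0.037 and -0.021 on its 2, RPL27A by -0.029 ± 0.11 (SE) and RPL35A, which is mutated in some families with Diamond-Blackfan anaemia, by 0.030 ± 0.084. The RPL4 probes had SEs of 0.066 to 0.083, so their log2 changes were smaller than their errors.

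Small-subunit proteins gave values of the same size. RPS23, which sits in the decoding centre, read 1.32, 1.16 and 1.38 in normoxia with vehicle, 1.35, 1.46, 1.31 and 1.29 in normoxia with ketamine, 1.32, 1.16, 1.43 and 1.27 in hypoxia with vehicle and from 1.32 to 1.52 on the 4 arrays in hypoxia with ketamine. Its groups overlapped, and its log2 change over both arms was 0.046 ± 0.070 (SE). RPS15A changed by 0.026 ± 0.075, RPS20 by -0.00010 ± 0.096 and RPS12 by -0.012 to 0.011 on its 3 probes. The medians over both arms were 0.030 for the large-subunit probes and 0.011 for the small-subunit probes.

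Among the members known for a role of their own, RPS6 is the substrate by which activity of the S6 kinases is usually read. It read 6.63, 6.59 and 6.54 in normoxia with vehicle, 6.57, 6.67, 6.49 and 6.55 in normoxia with ketamine, 6.60, 6.33, 6.55 and 6.41 in hypoxia with vehicle and 6.47, 6.45, 6.49 and 6.56 in hypoxia with ketamine. Hypoxic arrays were on the low side, with overlap in both arms. The mean log2 change of both arms was -0.096 ± 0.066 (SE, limma, n = 15, unadjusted p = 0.170, adjusted p = 0.436). It reached -0.18 (unadjusted p = 0.0496) only on quantile-scaled values, where RPL13A was also called (-0.21, unadjusted p = 0.0498). The array measures the amount of RPS6 messenger RNA and says nothing of its phosphorylation.

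RPL11, the p53-linked member, read 6.98 to 7.15 in normoxia with vehicle and 7.07 to 7.19 in hypoxia with vehicle, and its mean log2 change of both arms was 0.041 ± 0.070 (SE). RPS27A, which is made fused to ubiquitin, changed by at most 0.018 in size in either arm on its 2 probes. One of these probes lacks values on normoxia vehicle array 1 and normoxia ketamine array 1, where its spots were marked as outliers and left out of the fit. In all, 11 of 480 values were left out in this way, among them 4 of RPL27A, 2 of RPS27A and 1 each of RPS20 and RPL4. RPL27A therefore rests on 1 normoxic vehicle array, and its apparent separation from the ketamine arrays in normoxia (0.15, unadjusted p = 0.427) was not a call.

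RPS25, a small-subunit protein that viral and some cellular messages need for starting translation inside the message, was the member whose probes disagreed. A pair of its probes was designed on the RefSeq mRNA and another pair on an EST, at start positions that the array gives as 704 and 744. The printed parts show that the EST probes are neighbours which share 20 bases, in capitals, and that one RefSeq probe reaches the polyadenylation signal AATAAA near the end of the message. The first line gives a whole probe and the others 30 bases each.
A_70_P051257: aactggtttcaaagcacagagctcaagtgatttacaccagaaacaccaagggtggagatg
A_70_P051256: acactttgaaaAATAAAactttattaaatc
A_70_P014907: attagattatCACCAAGAAATGTAGGCATG
A_70_P014906: CACCAAGAAATGTAGGCATGtctcctaaag
No run of 25 bases is shared between the EST pair and the RefSeq pair.

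The RefSeq probe A_70_P051257 read 6.45, 6.36 and 6.50 in normoxia with vehicle, 6.44, 6.66, 6.45 and 6.36 in normoxia with ketamine, 6.49, 6.47, 6.59 and 6.28 in hypoxia with vehicle and 6.49, 6.39, 6.45 and 6.63 in hypoxia with ketamine. The 4 groups covered the same range. The mean log2 change of both arms was 0.015 ± 0.075 (SE, 95% interval -0.15 to 0.18), and that of A_70_P051256 was -0.0083 ± 0.081.

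The EST probe A_70_P014907 read -6.45, -5.83 and -5.86 in normoxia with vehicle and -6.44, -6.07, -5.88 and -5.89 in normoxia with ketamine. It read -5.23, -5.41, -6.25 and -6.01 in hypoxia with vehicle and -5.11, -5.66, -5.32 and -5.88 in hypoxia with ketamine. In each hypoxic group some arrays stood above all normoxic ones, 2 with vehicle and 3 with ketamine, while the rest lay among the normoxic values. In ketamine fetuses the log2 change was 0.58 ± 0.25 (SE, limma, n = 8, unadjusted p = 0.0353, adjusted p = 0.546), and over both arms 0.45 ± 0.18 (unadjusted p = 0.0275, adjusted p = 0.189). In vehicle fetuses it was 0.32 ± 0.27 (unadjusted p = 0.250).

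Its neighbour A_70_P014906 read -5.92, -5.58 and -6.03 in normoxia with vehicle and -5.77, -5.58, -5.91 and -5.88 in normoxia with ketamine. It read -5.00, -5.23, -6.01 and -5.64 in hypoxia with vehicle and -4.58, -5.27, -5.25 and -5.87 in hypoxia with ketamine. The same 5 hypoxic arrays were high as with the first EST probe. The mean log2 change of both arms was 0.46 ± 0.19 (SE, limma, n = 15, unadjusted p = 0.0295, adjusted p = 0.195), and in ketamine fetuses 0.54 ± 0.26 (unadjusted p = 0.0530). Both EST probes were well above background on 14 arrays, all except hypoxia ketamine array 4, so 3 of the 4 arrays of that group measured them.

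The calls of the EST probes held in some settings. Without hypoxia ketamine array 4, both probes were called in ketamine fetuses (0.75 for A_70_P014906 and 0.71 for A_70_P014907). Both were then also called over both arms (0.56 and 0.51). With the slide or the replicate number as a block, both were called over both arms too. The calls were lost in several other settings. Over both arms the change was 0.20 and 0.21 with normexp, and 0.16 for A_70_P014906 in the deposited table, which does not hold A_70_P014907. Within slide 1 it was 0.21 for A_70_P014906 and 0.46 for A_70_P014907, and within slide 2 it was 0.75 and 0.40, with no call in either slide. The ketamine-arm call was also lost without normoxia ketamine array 1 (0.45) or 2 (0.58) and without hypoxia ketamine array 1 (0.45) or 3 (0.52). The call over both arms was lost for 1 or both probes without normoxia vehicle array 1 or 3, normoxia ketamine array 1 or 3, hypoxia vehicle array 1 or 2, or hypoxia ketamine array 1 (0.35 to 0.44). The monocyte and macrophage probes, given above, were also higher on hypoxic arrays. The mean level of 6 fibroblast probes ran from 0.25 to 0.68 on normoxic arrays and from -0.10 to 0.34 on hypoxic ones, and that of 5 endothelial probes from -2.06 to -1.63 and from -2.45 to -1.88; all of these were well above background on all 15 arrays. The part of these cell types in the EST probes' rise was not tested.

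**Figure D4:**
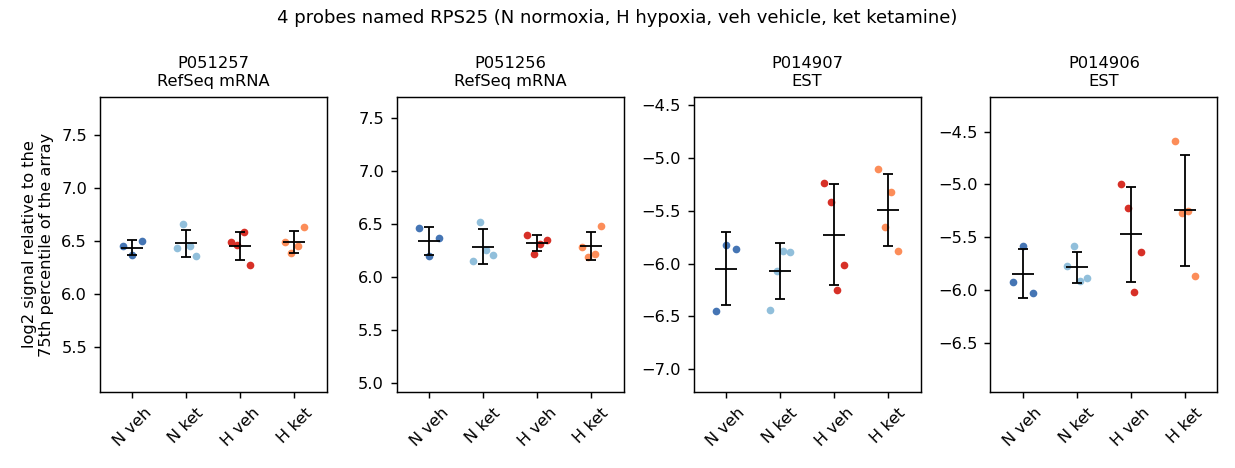
Each panel plots 1 of the 4 probes named RPS25 as log2 signal relative to the 75th percentile of the array, with 1 point per array and the mean ± SD of each group in black; every y axis spans the same number of log2 units. The 2 RefSeq probes (left) lie at one level in all groups, and on the 2 EST probes (right) 5 of the 8 hypoxic arrays stand above all normoxic arrays.

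The RPS15 probe, also dim, came from an assembled EST cluster, and its first 30 bases are shown because no other probe stands for this gene.
A_70_P003077: tatttcagccaatcctgtcagtattccggc
RPS15 is a small-subunit protein near the decoding site. Its probe was well above background on all 15 arrays and read -4.66 to -4.23 in normoxia with vehicle, -5.00 to -4.41 in normoxia with ketamine, -4.41 to -4.32 in hypoxia with vehicle and -4.76 to -4.15 in hypoxia with ketamine. It was not called in any comparison, but was called lower with ketamine in normoxia within slide 2 (-0.66), without normoxia vehicle array 2 (-0.42) and without the arrays with placental lactogen (-0.51). Without those arrays it was called lower with ketamine in hypoxia too (-0.30, limma, unadjusted p = 0.0446).

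The motif AATAAA, the common polyadenylation signal, was read as letters in the probes. It was found in 5 of 32 ribosomal protein probes (15.6%), among them probes of RPS12, RPL11, RPL13A and RPS25, and in 5.63% of all probes of the array. Its reverse complement TTTATT was in 6.25% and 3.70%. The median GC content was 44.2% in the ribosomal protein probes and 45% over tested probes.

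Genes that act with the ribosome were read from fixed lists. Of 16 probes for 10 translation factor genes, none was called after hypoxia in vehicle or in ketamine fetuses. The shares of all tested probes called there were 16.1% and 8.67%. With ketamine in hypoxic fetuses 4 of the 16 were called, all lower, against 6.07% of all tested probes called in either direction. They were both probes of EIF3A, the largest subunit of the factor that brings the small subunit to the message (-0.43 ± 0.14 and -0.40 ± 0.15 on the log2 scale, SE, limma, unadjusted p = 0.00881 and 0.0217), a probe of the scaffold factor that the array names EIF4GI (-0.53 ± 0.22) and 1 of 2 probes of the poly(A)-binding protein PABPC1 (-0.29 ± 0.12). Their adjusted p-values were 0.80 to 0.803. Over both arms 1 of the 16, a probe of the helicase EIF4A2, was called lower after hypoxia, against 20.3% of all tested probes called (-0.20 ± 0.091, limma, unadjusted p = 0.0456, adjusted p = 0.235).

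The list of ribosome assembly genes had 1 probe, for DKC1, and that of the mitochondrial ribosome 1, for MRPL32, and neither was called. Of the S6 kinase and mTOR list the array held AKT1 and MYC. MYC, a transcription factor that drives ribosome production, was called higher after hypoxia with vehicle on both probes (1.55 ± 0.59 and 1.51 ± 0.61, SE, limma, unadjusted p = 0.0201 and 0.0272, adjusted p = 0.237 and 0.258). It was called lower with ketamine in hypoxia on both probes (-1.20 and -1.22). Over both arms it was called higher after hypoxia on both probes (1.19 ± 0.40 and 1.13 ± 0.41, SE, unadjusted p = 0.0106 and 0.0169, adjusted p = 0.124 and 0.154). AKT1 was not called. The shares of all tested probes called were 16.1% after hypoxia with vehicle, 6.07% with ketamine in hypoxia and 20.3% after hypoxia over both arms.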

How the data were processed

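The scanner files hold spot intensity of 1-colour arrays, which, per the file headers, Agilent Feature Extraction had background subtracted and detrended within each array, with no scaling between arrays. The authors deposited log2 values too, with quartiles that nearly coincide between columns. How these were corrected and filtered is not given in the labels or files. They hold 30 of the 32 probes, and since 12 of 15 columns resembled another array of the group more than their own, they served by group and only as an alternative.

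Processed intensity was scaled to each array's 75th percentile and log2 transformed. Outlier spots were left out and spots averaged by probe. Probes well above background on at least 3 of 15 arrays were tested in limma 3.58.1 (R 4.3.3), with 1 mean per group, no covariates, two-sided tests and 11 residual plus 2.4 prior degrees of freedom. The fit was tested on simulated data. Intervals are 95%. The number of arrays limits the precision.

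Named were probes past either threshold, a fixed panel (of which RPS6, RPL11, RPL13A and RPS27A had a probe), genes with several probes, and called probes of the other lists; RPL6, RPS26, RPS15 and the mirror probe were singled out after their values were seen. The members and lists were chosen with earlier results of these data known. Gene names come from the array, and 25 of the 32 probes matched a symbol in a sheep RefSeq table; 2 of these keep a provisional symbol there and are named by the array's description. Counts and medians are over all 32 probes, but 3 probes of 2 genes are not reported singly here. Alternatives were the scaling, background, filter, slide, pairing and arrays left out.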

Additional observations from a re-analysis of the deposited data

Results flagged for a closer look

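In groups of 4 arrays, the highest or lowest value of a ribosomal protein probe was compared with the gap to the others. Of 89 such groups 2 (2.25%) had a value far from the rest, where chance alone gives about 1 in 20. The RPL14 probe A_70_P014682 read 5.37 on normoxia ketamine array 1 and 5.50 to 5.52 on the other 3 arrays of that group. The RPL6 probe read 8.11 on hypoxia vehicle array 4 and 8.06 on the other 3. Those 3 lie within 0.0020 of each other, so a small gap met the criterion.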

How the results depend on the processing

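Counts of called ribosomal protein probes were small, so a change of 1 or 2 probes moves them. Percentages in brackets are the shares of all probes tested in that setting that were called, in either direction. For hypoxia with vehicle the count of 0 became 2 with quantile scaling (17.3%) and 3 in the deposited table (18.1%). The median change was -0.17 and -0.15 there. The count was 0 without any 1 array (median -0.093 to -0.0048). For hypoxia with ketamine the count of 1 became 0 with quantile scaling, normexp, the deposited table, the filter on all 15 arrays, within either slide and without the arrays with placental lactogen (4.69% to 9.04%). It became 2 without the 2 arrays of lowest correlation (10.7%). It was also 2 when hypoxia ketamine array 4 was left out as well (8.85%), a setting chosen after seeing the data. Without any 1 array it was 0 to 2 (median 0.025 to 0.099). For hypoxia over both arms the count of 2 became 3 with quantile scaling (21.6%): 1 RPS25 probe, and RPS6 and RPL13A lower. It became 0 with normexp, the deposited table, the filter on all arrays, within either slide and without the lactogen arrays (8.4% to 22.5%). It was 0 to 2 without any 1 array (median -0.017 to 0.039). For ketamine in hypoxia the count of 0 became 2 in the deposited table (6.24%) and without the lactogen arrays (11.3%), and stayed 0 without any 1 array (median 0.0048 to 0.11). For ketamine in normoxia it became 1 with quantile scaling (2.67%), within slide 2 (2.13%) and without the lactogen arrays (3.26%). It became 3 in the deposited table (2.39%), and it was 0 or 1 without any 1 array (median -0.077 to 0.0061). The interaction's count of 0 became 2 with quantile scaling (3.18%) and 4 in the deposited table (3%), and stayed 0 without any 1 array (median 0.061 to 0.14). The causes were not tested, except for probes left out by construction. The filter on all 15 arrays leaves out both EST probes of RPS25. The deposited table lacks A_70_P014907, so the ketamine-arm call of that probe could not be repeated there.

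Replicate numbers were not taken as pairs: over 21 pairs of arrays with the same number, deviations correlated at -0.29 to 0.37 with a median of 0.037. With the replicate number as a block the counts were 0, 1, 0, 0 and 0 in the comparisons above in the order hypoxia with vehicle, hypoxia with ketamine, ketamine in hypoxia, ketamine in normoxia and interaction, and 2 over both arms. The ketamine-arm call was then A_70_P014906 (0.54, unadjusted p = 0.0235) in place of A_70_P014907 (0.58, unadjusted p = 0.0563).

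Residual spread was 1.30 times larger in hypoxic than in normoxic groups, while the fit assumes 1 spread. The labels do not say whether any fetuses shared a mother, and p-values measure the spread between these arrays. Dim probes lie close to background, and their changes are the ones most open to the background correction.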
